A study of Mus musculus with 8 samples.

Results

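The 10 genes described here encode proteins of the basement membrane, the sheet of extracellular matrix on which epithelia sit: the laminin chains Lama1, Lama5, Lamb1 and Lamc1, the collagen IV chains Col4a1 and Col4a2, the linker proteins Nid1, Nid2 and Hspg2, and the matrix-binding protein Sparc. They were taken by symbol from a table of 52636 mouse genes, of which 52403 had a symbol, and all 10 were among the 18321 genes with enough counts to be tested. RNA was sequenced from mouse epiblast, the layer of the early embryo that gives rise to the body, at embryonic day 5.5 (E5.5), to find which genes respond to ERK, a kinase of the MAPK signalling cascade. The embryos had the genotype Sox2Cre;CRAFR26, in which a Cre recombinase acting in the epiblast is combined with a cRAF construct that induces ERK when 4-hydroxytamoxifen (4OHT) is given. The mouse line came from construct-bearing embryonic stem cells placed into morulas.

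The 8 libraries formed 4 groups of 2 replicates: vehicle (ethanol) and 250 nM 4OHT, each in clone 4 and clone 8 of the line. All 8 libraries carry this genotype label, and embryos of the 4OHT groups spent 4 h in IVC2 medium with the drug. Esr1, the gene of the estrogen receptor whose ligand-binding part makes many constructs inducible by 4OHT, stood at 0.187 to 0.723 CPM (counts per 1 M counts of the scaled library) in the 4 vehicle libraries and at 5.92 to 6.76 CPM in the 4 with 4OHT. It was the single gene that edgeR called over both clones together (log2 fold change 3.99, adjusted p 0.047). Whether transcripts of this construct are counted at Esr1 is not given in the sources used here, so that vehicle embryos carried the construct rests on the label alone. The part of this split in the comparisons of 4OHT with vehicle was not tested. The vehicle samples are labelled both as 0 h and as vehicle for 4 h. If they were taken uncultured, every comparison of 4OHT with vehicle also contains the culture. The extraembryonic layers were dissected off, and 10 epiblasts were pooled for each library, which was made from 7 ng of RNA. Whether the replicates were separate litters is not given, so the p-values measure the spread between these samples only. Because each clone is 1 line and each group has 2 libraries, a difference between clones describes these 8 pools.

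Vehicle libraries held 33.3 to 38.0 M counts (M, mega) and 4OHT libraries 56.4 to 72.5 M, and the 10 genes had 220 to 16274 counts each in every library, so counting error was small beside the spread between replicates. All 10 epiblast markers on the list used here were detected, and Pou5f1, a core pluripotency factor, stood at 435 to 888 CPM. The 10 summed to 5847 to 6297 CPM in vehicle clone 4, 5118 to 5530 in 4OHT clone 4, 5980 to 6047 in vehicle clone 8 and 5123 to 5144 in 4OHT clone 8. In each clone 9 of 10 had a negative log2 fold change (medians -0.17 and -0.41). In clone 8, 4 were called lower, against 8.60% of all genes, and in clone 4 none was. The part of this shift in the member values was not tested. Markers of other tissues of the conceptus were detected as well, and which cells their RNA came from was not tested. None of 17 visceral endoderm markers was at 0 in any library, and 12 extraembryonic ectoderm markers summed to 239 to 707 CPM. The 10 markers of parietal endoderm, a rich source of basement membrane, summed to 97.0 to 217 CPM. Of these Krt19, a keratin that other epithelia also express, held 34.1 to 101 CPM, while Thbd stood at 0.0556 to 1.34 CPM. The decidual marker Prl8a2 was at 0 to 0.161 CPM.

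A basement membrane is built from laminin trimers of 1 alpha, 1 beta and 1 gamma chain, which polymerize at the cell surface, and from a network of collagen IV, in which alpha 1 and alpha 2 chains combine. Nidogens bridge the laminin and collagen networks, perlecan (Hspg2) brings heparan sulfate chains, and Sparc binds collagens. Around implantation the visceral endoderm, which envelops the epiblast, is a main producer of the basement membrane between both layers, and contact with it helps the epiblast to become a polarized epithelium.

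Both collagen IV genes lie head to head on chromosome 8, and their transcripts start from a shared promoter region. In GENCODE M21 (GRCm38, the mm10 build), Col4a1 (ENSMUSG00000031502) runs on the minus strand over chr8:11198423-11312826 and Col4a2 (ENSMUSG00000031503) on the plus strand over chr8:11312805-11449287, so that the first exons overlap by 22 bases. RefSeq windows (GRCm38.p6) from 250 bases before to 50 after the start were at hand for 7 of the 10 genes, not for Lama1, Lamc1 and Nid2. The overlap of the collagen IV pair, chr8:11312805-11312826, is printed because the means of both genes put the 4 groups in the same order, with capitals on a GC box (GGGCGG or its complement):
Col4a2 strand: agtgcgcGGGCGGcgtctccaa
Col4a1 strand: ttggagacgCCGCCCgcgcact

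A pair of further upstream stretches is shown to set a gene whose level changed in clone 8, Nid1, beside Lama5, whose level hardly moved. They end at the first base before the annotated gene, Nid1 at chr13:13437352-13437550 on the plus strand and Lama5 at chr2:180225860-180226109 on the minus strand. Capitals mark a GC box, a CCAAT box (CCAAT) or an ETS motif (CCGGAA), each read on both strands:
Nid1: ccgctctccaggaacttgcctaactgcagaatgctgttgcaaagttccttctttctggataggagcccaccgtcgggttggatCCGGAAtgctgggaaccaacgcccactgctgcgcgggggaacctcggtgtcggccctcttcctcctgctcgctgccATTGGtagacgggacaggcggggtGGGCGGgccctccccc
Lama5: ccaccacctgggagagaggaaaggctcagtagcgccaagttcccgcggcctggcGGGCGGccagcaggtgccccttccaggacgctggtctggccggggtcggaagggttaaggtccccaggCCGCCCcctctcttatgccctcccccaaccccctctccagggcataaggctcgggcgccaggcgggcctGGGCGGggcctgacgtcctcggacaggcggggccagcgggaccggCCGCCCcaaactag

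Over the full windows, a GC box occurred in 6 of the 7 genes, against 35.7% of 32841 mouse promoter windows of the same length, and a CCAAT box in 4 of 7 against 37.4%. The ETS motif CCGGAA was found in 1 of 7, Nid1, against 14.9% of all windows. Only these exact letters were looked for, so shorter ETS sites were not counted. No window of the 7 held an AP-1 motif (TGANTCA), which 7.81% of all windows held. The GATA motif (AGATAA), held by 11.2% of all windows, and the CArG box, held by 1.63%, were not found either. The window of Sparc, whose level also changed in clone 8, held no match to any of these motifs. The windows of these genes are rich in G and C, at 55.3% to 74.0% against a median of 52.7% over all windows, and matches of different motifs did not overlap in any of them. A match says only that the letters are present.

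Levels of the 10 genes can be set against each other once divided by exonic length, as CPM per kb. On that scale Sparc was highest, with a mean of 52.3 CPM per kb over the 8 libraries (range 35.5 to 78.8), followed by Nid2 at 27.8 (13.8 to 45.3) and Lamb1 at 13.7 (9.37 to 18.5). The collagen IV chains came next, Col4a1 at 7.72 (4.17 to 12.8) and Col4a2 at 7.24 (3.32 to 13.7), then Lama5 at 5.82, Lamc1 at 4.32, Nid1 at 3.90, Lama1 at 2.16 and Hspg2 at 1.07 CPM per kb. The ranges of each pair of neighbours in this order overlapped. Sparc stood at percentile 92.9 of all tested genes per length and Hspg2 at percentile 41.7, so the scaffold genes span moderate to high levels in this tissue.

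**Figure D1:**
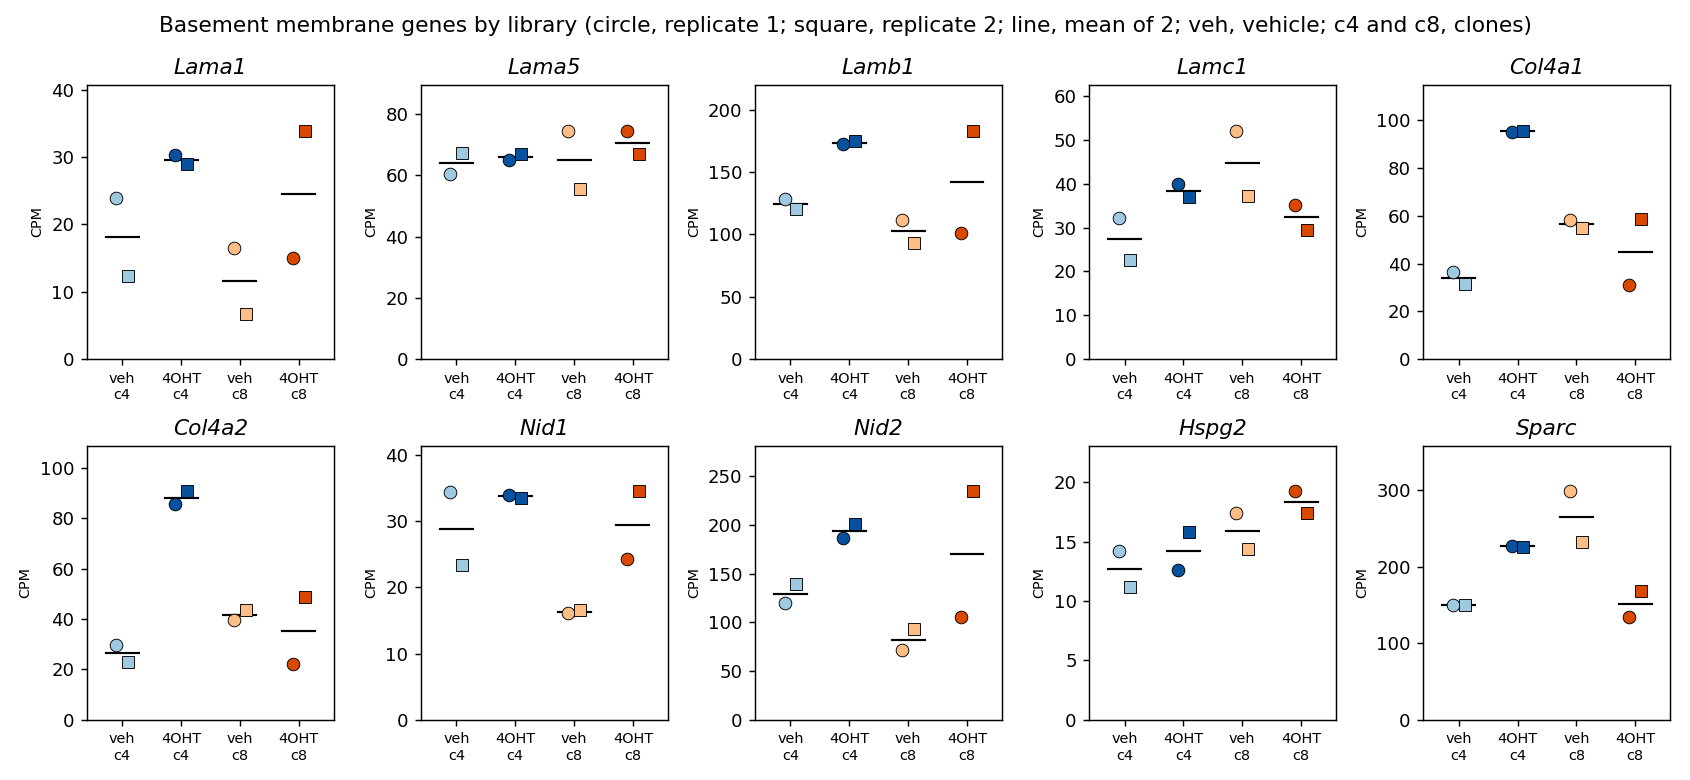
Level of each of the 10 basement membrane genes in CPM (vertical axis, from 0) in every library, by group; circles are replicate 1, squares replicate 2 and lines the mean of the 2. Col4a1 and Col4a2 are highest in 4OHT clone 4, where both replicates nearly coincide, and the 4OHT clone 8 replicates lie far apart for Lama1, Lamb1, Col4a1, Col4a2 and Nid2.

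Collagen IV showed the largest contrast between the clones. After 4OHT the chains stood at 2.82-fold and 3.34-fold of vehicle in clone 4 and at 0.796 and 0.850 of vehicle in clone 8. Neither change passed the test within a clone, and the difference between the responses did. Col4a1 stood at 36.4 and 31.3 CPM in vehicle clone 4 and at 95.0 and 95.7 CPM in 4OHT clone 4. In clone 8 it stood at 58.1 and 54.7 CPM in vehicle and at 31.1 and 58.6 CPM in 4OHT. The groups of clone 4 were far apart, while in clone 8 replicate 1 of 4OHT lay below both vehicle libraries and replicate 2 lay beside them.

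Col4a2 followed the same order, with 29.8 and 23.1 CPM in vehicle clone 4 and 85.7 and 90.8 CPM in 4OHT clone 4. In clone 8 Col4a2 had 39.7 and 43.7 CPM in vehicle and 22.0 and 48.9 CPM in 4OHT. Again 4OHT clone 4 stood alone at the top and the clone 8 groups overlapped.

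The log2 fold change in clone 4 was 1.49 ± 0.25 (SE) for Col4a1 and 1.74 ± 0.32 (SE) for Col4a2. Neither passed the adjusted threshold of edgeR's quasi-likelihood test in clone 4 (adjusted p 0.0663 and 0.0816), a comparison in which 0.0382% of all tested genes were called. That fit gives all 4 groups 1 shared spread per gene, and each SE here rests on it. Replicates of Col4a1 differed 1.01-fold in 4OHT clone 4 and 1.88-fold in 4OHT clone 8. Fitted alone, clone 4 had 197 genes called and clone 8 had 3, so the calls within a clone depend on this sharing. In clone 8 the log2 fold changes were -0.33 ± 0.25 (adjusted p 0.389) and -0.24 ± 0.31 (adjusted p 0.637). The response in clone 8 minus that in clone 4 was -1.82 ± 0.35 for Col4a1 (adjusted p 0.0389) and -1.97 ± 0.44 for Col4a2 (adjusted p 0.0496), where 2.83% of all genes were called.

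Single libraries decided these calls. The calls of the difference held in 2 of the 8 fits that left out 1 library each, those without either 4OHT clone 8 library, and were lost without any other library; the log2 difference ran from -2.36 to -1.44 for Col4a1 and from -2.67 to -1.51 for Col4a2. Without 4OHT clone 8 replicate 2 both chains were called lower in clone 8, at -0.86 and -0.93. Without 4OHT clone 8 replicate 1 they were at 0.05 and 0.23 there. With RLE size factors or library totals the call for Col4a2 was lost, at -1.99 and -1.88.

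In clone 4 the 2 chains were called higher by DESeq2, in the fit of clone 4 alone, and without either 4OHT clone 8 library. As a pair they kept a similar proportion: Col4a1 over Col4a2 per exonic length was 0.934 to 1.30 in all 8 libraries. The ratio was lowest in 4OHT clone 4, at 0.983 and 0.934, against 1.06 to 1.30 in the other groups. Ranked by the distance between centred log2 CPM profiles over the 8 libraries, Col4a1 was the 3rd nearest of 18320 genes to Col4a2, and Col4a2 the 6th nearest to Col4a1, at a root mean square distance of 0.16.

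Visceral endoderm markers moved in the same direction as collagen IV in each clone. The 17 markers, which include the transport proteins Ttr and Apoa1, the absorptive receptor Amn and the regulator Hnf4a, summed to 1539 and 2048 CPM in vehicle clone 4 and to 4499 and 5281 CPM in 4OHT clone 4. They summed to 3327 and 3385 CPM in vehicle clone 8 and to 1359 and 2611 CPM in 4OHT clone 8. In clone 4 17 of 17 had a positive log2 fold change (median 1.85, 1 called higher), and in clone 8 15 of 17 had a negative one (median -1.0, 5 called lower and 1 higher). Of all genes, 0.0382% were called in clone 4, and 8.60% lower and 8.00% higher in clone 8. For the difference of the responses the median was -2.86, with 9 of 17 called lower, against 1.75% of all genes.

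The summed CPM of Col4a1 and Col4a2 ranked the groups in the same way, at 54.3 to 66.2 in vehicle clone 4, 97.9 to 98.3 in vehicle clone 8, 181 to 186 in 4OHT clone 4 and 53.1 to 107 in 4OHT clone 8. Within 4OHT clone 8, replicate 1 was the lower for both the markers and collagen IV. The part of the visceral endoderm markers in the collagen IV result was not tested. In bulk RNA, fewer cells of a type and less RNA per cell cannot be told apart.

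**Figure D2:**
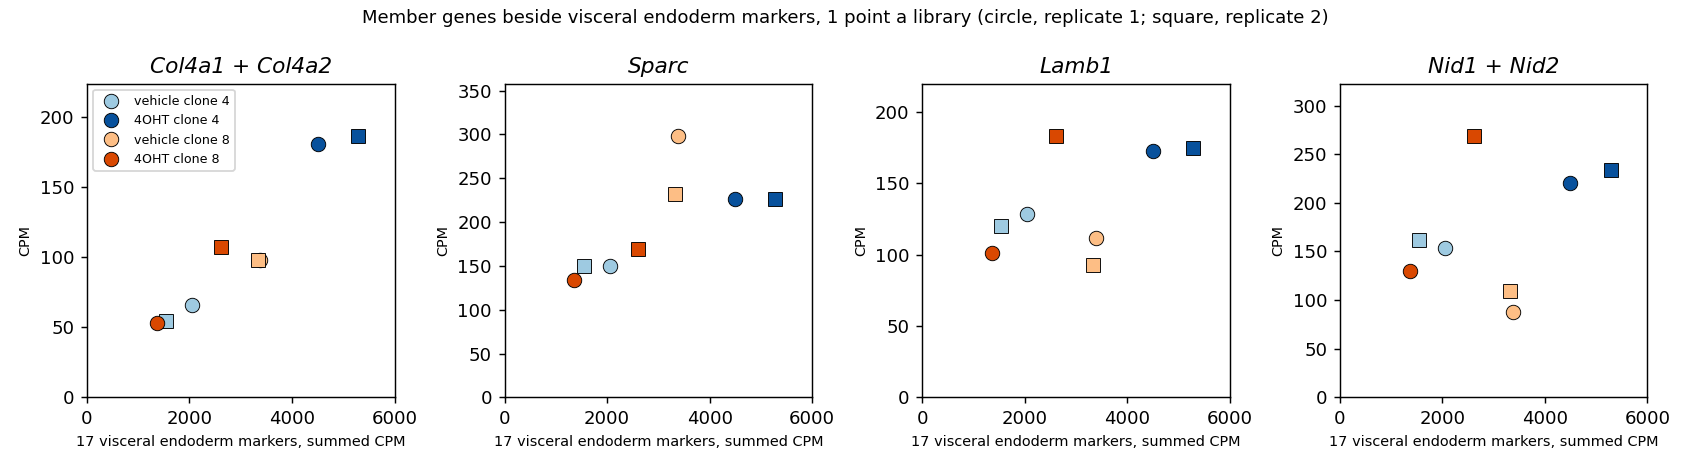
Summed CPM of 17 visceral endoderm markers (horizontal axis) against the CPM of Col4a1 plus Col4a2, Sparc, Lamb1, and Nid1 plus Nid2 (vertical axes), 1 point a library, coloured by group; circles are replicate 1 and squares replicate 2. Collagen IV runs from 53.1 to 186 CPM in nearly the order of the markers, while for Lamb1 and the nidogens 4OHT clone 8 replicate 2 lies high and the vehicle clone 8 libraries low at their marker level.

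Sparc had the lowest adjusted p of the 10 genes in clone 8. It fell after 4OHT to 0.571 of its vehicle level there and stood at 1.51-fold of vehicle in clone 4. Sparc (ENSMUSG00000018593, chr11:55394500-55423183, minus strand) had 298 and 232 CPM in vehicle clone 8 and 134 and 169 CPM in 4OHT clone 8. In clone 4 it had 149 and 150 CPM in vehicle and 227 and 226 CPM in 4OHT. The groups did not overlap in either clone, and they lay in opposite order. Of all tested genes, 47.5% lacked overlap in clone 4 and 60.0% in clone 8, in either direction.

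In clone 8 the log2 fold change of Sparc was -0.81 ± 0.15 (adjusted p 0.0124), in a comparison that called 16.6% of all genes. In clone 4 it was 0.60 ± 0.15 (adjusted p 0.183). The difference between the clones, -1.40 ± 0.21, was called (adjusted p 0.0256). The clone 8 call held in all but 1 of the 8 fits that left out a library, that without vehicle clone 8 replicate 1 (-0.64, adjusted p 0.109). It was also lost in the fit of clone 8 alone (-0.83, adjusted p 0.0621). The call of the difference was lost in 5 of 8, all but those without vehicle clone 8 replicate 2, 4OHT clone 8 replicate 1 or 4OHT clone 8 replicate 2, within -1.61 to -1.24. The visceral endoderm values given above move with Sparc as well, and their part in it was not tested.

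The nidogens rose in clone 8. Nid1 (ENSMUSG00000005397, chr13:13437551-13512269, plus strand), whose upstream sequence is printed above, reached 1.80-fold and Nid2 (ENSMUSG00000021806, chr14:19751265-19811787, plus strand) 2.07-fold of vehicle there, and neither was called in clone 4. Of the exonic bases of Nid2, 8.45% are shared with Rtraf, whose reads could not be told apart without strand. Nid1 stood at 16.1 and 16.5 CPM in vehicle clone 8 and at 24.3 and 34.5 CPM in 4OHT clone 8. In clone 4 Nid1 had 34.3 and 23.4 CPM in vehicle and 34.0 and 33.5 CPM in 4OHT. The 2 vehicle libraries of clone 8 were the lowest of all 8, and the clone 4 groups overlapped.

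Nid2 had 71.3 and 93.2 CPM in vehicle clone 8 and 106 and 234 CPM in 4OHT clone 8. In clone 4 Nid2 had 120 and 139 CPM in vehicle and 187 and 200 CPM in 4OHT. It was the only member whose 4OHT libraries both lay above both vehicle libraries in each clone, a pattern that 7.29% of tested genes share. The replicates of 4OHT clone 8 differed 2.22-fold, more than those of any other group.

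The log2 fold change in clone 8 was 0.85 ± 0.23 for Nid1 (adjusted p 0.0365) and 1.05 ± 0.30 for Nid2 (adjusted p 0.0457). In clone 4 it was 0.22 ± 0.23 for Nid1 (adjusted p 0.826) and 0.58 ± 0.30 for Nid2 (adjusted p 0.590). The differences between the clones, 0.63 ± 0.32 and 0.47 ± 0.43, were not called (adjusted p 0.283 and 0.549), so the nidogen responses are not shown to differ between the clones. Without 4OHT clone 8 replicate 1 the difference of Nid2 was called, at 0.93 (adjusted p 0.0467). Both clone 8 calls were lost in 7 of 8 fits that left out a library, every one except that without 4OHT clone 8 replicate 1. Their log2 fold changes then ran from 0.57 to 1.08 and from 0.36 to 1.51, and the fit of clone 8 alone called neither.

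Extraembryonic ectoderm markers were low in the same vehicle clone 8 libraries in which the nidogens were low. The 12 markers summed to 239 to 272 CPM in vehicle clone 8, against 499 to 683 CPM in vehicle clone 4, 643 to 658 CPM in 4OHT clone 4 and 607 to 707 CPM in 4OHT clone 8, with none at 0. In clone 8, 7 of 12 were called higher and 1 lower after 4OHT (median log2 fold change 1.43), against 8.00% and 8.60% of all genes. The part of these markers in the nidogen result was not tested. The 10 parietal endoderm markers, members left out, summed to 97.0 and 217 CPM in 4OHT clone 8, lower in replicate 1 as for both nidogens, and to 120 to 170 CPM elsewhere. Their part was not tested either.

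Perlecan is the third linker gene and changed little. Hspg2 (ENSMUSG00000028763, chr4:137468769-137570630, plus strand) had 14.2 and 11.2 CPM in vehicle clone 4, 12.6 and 15.8 CPM in 4OHT clone 4, 17.4 and 14.4 CPM in vehicle clone 8 and 19.2 and 17.4 CPM in 4OHT clone 8. The groups overlapped in clone 4 and barely missed overlapping in clone 8. Its log2 fold change was 0.16 ± 0.21 in clone 4, with an interval of 2 SE either side from -0.26 to 0.59, and 0.21 ± 0.21 in clone 8, from -0.22 to 0.63. Its mean level per length over the 8 libraries was the lowest of the 10 genes.

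With the expression filter and all 8 libraries, edgeR called none of the 4 laminin chains in clone 4, in clone 8 or for the difference. In clone 4 and in clone 8, 0 of 4 had an unadjusted p under 0.05 and DESeq2 called 0. For the difference both counts were 1. Over all genes edgeR called 0.0382% in clone 4, 16.6% in clone 8 and 2.83% for the difference. In the same order, DESeq2 called 2.55%, 23.5% and 10.2%. An unadjusted p under 0.05 was found for 1814, 6076 and 4165 of 18321 genes. Lama1 and Lamb1 had positive log2 fold changes in both clones, Lamc1 had opposite signs and Lama5 stayed near 0. Lama1 (ENSMUSG00000032796, chr17:67697259-67822647, plus strand), the alpha chain of laminin-111, had 23.9 and 12.3 CPM in vehicle clone 4, 30.2 and 28.9 CPM in 4OHT clone 4, 16.5 and 6.63 CPM in vehicle clone 8 and 15.1 and 33.9 CPM in 4OHT clone 8. Its replicates differed 1.94-fold to 2.49-fold in 3 of the 4 groups, and the log2 fold changes of 0.71 ± 0.48 in clone 4 and 1.08 ± 0.49 in clone 8 were not called (adjusted p 0.725 and 0.157). Without 4OHT clone 8 replicate 1, Lama1 was called higher in clone 8, at 1.55 (adjusted p 0.0485).

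Lamb1 (ENSMUSG00000002900, chr12:31265234-31329644, plus strand), the beta chain common to laminin-111 and laminin-511, had 129 and 120 CPM in vehicle clone 4 and 172 and 175 CPM in 4OHT clone 4. In clone 8 Lamb1 had 112 and 93.0 CPM in vehicle and 101 and 183 CPM in 4OHT. The 4OHT libraries of clone 4 were above vehicle, and in clone 8 replicate 1 of 4OHT lay between the vehicle libraries and replicate 2 far above them. The log2 fold change was 0.48 ± 0.23 in clone 4 (adjusted p 0.557) and 0.47 ± 0.23 in clone 8 (adjusted p 0.192), and their difference was -0.0095 ± 0.33, a value whose sign turned to 0.093 with library totals. Without 4OHT clone 8 replicate 1, Lamb1 was called higher in clone 8, at 0.84 (adjusted p 0.0107).

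Lamc1 (ENSMUSG00000026478, chr1:153218922-153332786, minus strand), the gamma chain of both trimers, had 32.2 and 22.7 CPM in vehicle clone 4, 40.0 and 36.9 CPM in 4OHT clone 4, 52.1 and 37.1 CPM in vehicle clone 8 and 35.2 and 29.5 CPM in 4OHT clone 8. Its libraries did not overlap within either clone, higher after 4OHT in clone 4 (as in 23.7% of all genes) and lower in clone 8 (as in 28.3%). The log2 fold changes of Lamc1, 0.49 ± 0.22 and -0.46 ± 0.22, were not called (adjusted p 0.524 and 0.178). Their difference of -0.95 ± 0.31 was not called by edgeR (adjusted p 0.127) and was called by DESeq2, at -0.97.

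Lama5 (ENSMUSG00000015647, chr2:180176373-180225859, minus strand), the alpha chain of laminin-511 and the gene with the other upstream sequence above, had the smallest log2 fold change of the 10 genes in both clones. It had 60.4 and 67.4 CPM in vehicle clone 4, 64.9 and 66.9 CPM in 4OHT clone 4, 74.6 and 55.4 CPM in vehicle clone 8 and 74.4 and 66.8 CPM in 4OHT clone 8. All groups overlapped. The log2 fold change was 0.04 ± 0.16 in clone 4, with an interval of 2 SE either side from -0.28 to 0.37, and 0.12 ± 0.16 in clone 8, from -0.20 to 0.44.

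**Figure D3:**
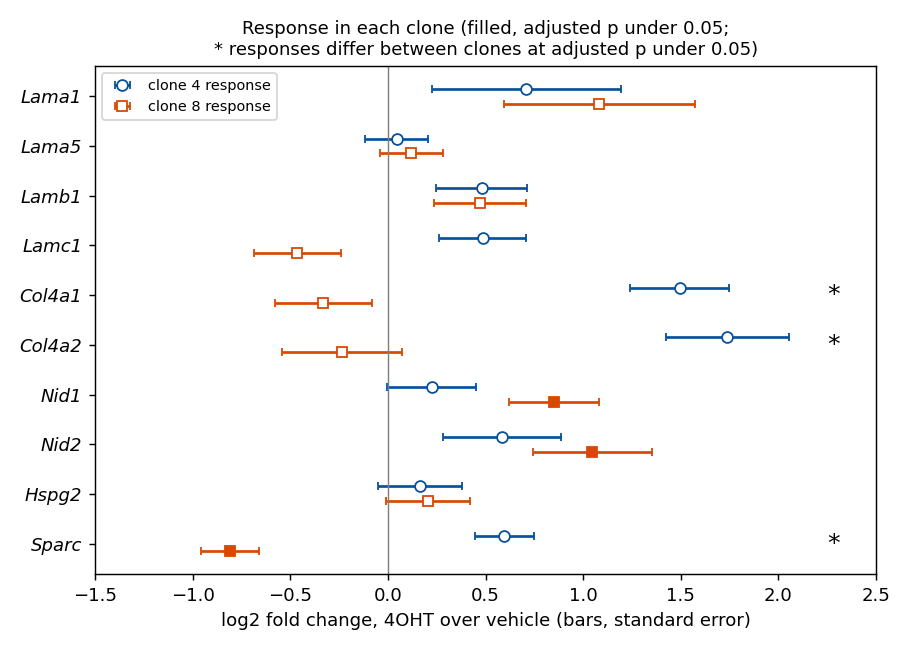
Log2 fold change of 4OHT over vehicle (horizontal axis) for each of the 10 genes in clone 4 (circles) and clone 8 (squares), with bars of 1 SE; filled symbols passed an adjusted p of 0.05 and asterisks mark a called difference between the clones. Col4a1, Col4a2 and Sparc carry asterisks, with points on opposite sides of 0, and the filled symbols are Nid1, Nid2 and Sparc in clone 8.

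Counted together, 10 of the 10 genes had a positive log2 fold change in clone 4, with a median of 0.53 against -0.0047 for all tested genes. None was called by edgeR, 3 (Col4a1, Col4a2 and Sparc) had an unadjusted p under 0.05, as did 1814 of all genes, and DESeq2 called those 3. In 7 of 10 the 4OHT libraries lay above both vehicle libraries, as in 23.7% of all genes, and in 0 of 10 below, as in 23.8%. In clone 8, 6 were positive and 4 negative, with a median of 0.16 against 0.07 for all genes, and 2 were called higher and 1 lower against 8.00% and 8.60% of all genes. In 3 of 10 the 4OHT libraries of clone 8 lay above both vehicle libraries and in 2 of 10 below, as in 31.7% and 28.3% of all genes.

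For the difference of the responses 3 of 10 were called lower, against 1.75% of all genes. With both clones in 1 additive fit 0 of 10 were called, where 0.00546% of all genes were. In that fit 4 of the 10 and 3088 of all genes had an unadjusted p under 0.05, and DESeq2 called Nid2 alone. The log2 fold change of Nid2 over both clones was 0.81 ± 0.23 by edgeR (adjusted p 0.156) and 0.81 by DESeq2 (adjusted p 0.0183).

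The clones also differed in vehicle. There Sparc was 1.77-fold higher in clone 8 than in clone 4 (log2 difference 0.83 ± 0.15, adjusted p 0.0226), the single member called by edgeR in a comparison that called 8.37% of genes. Of 8 fits that left out a library, 3 lost the call, those without vehicle clone 4 replicate 1, vehicle clone 4 replicate 2 or vehicle clone 8 replicate 1. Lamc1 and Col4a1 were at 0.70 ± 0.22 and 0.74 ± 0.25, and Nid1 and Nid2 at -0.83 ± 0.23 and -0.65 ± 0.30, none of them called by edgeR (adjusted p 0.0826, 0.101, 0.0588 and 0.215). DESeq2 called Lamc1, Col4a1 and Nid1 as well as Sparc (adjusted p 0.0129, 0.0173, 0.0068 and 5.7e-05), and edgeR with the replicate block called Lamc1 (adjusted p 0.038).

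Among 4OHT libraries no member was called by edgeR, where 0.202% of genes were. There 3 members and 3296 of all genes had an unadjusted p under 0.05, and DESeq2 called 3 members. Col4a1 was at -1.09 ± 0.25, Col4a2 at -1.32 ± 0.31 and Sparc at -0.58 ± 0.15 (adjusted p 0.0850, 0.0888 and 0.108). All 3 genes thus had the higher mean in clone 8 with vehicle and in clone 4 with 4OHT.

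Ratios within a library are free of the scaling between libraries. Col4a1 over Lamb1 per length, a ratio chosen after the values were seen, was 0.346 to 0.376 in vehicle clone 4 and 0.728 to 0.732 in 4OHT clone 4. It was 0.691 to 0.781 in vehicle clone 8 and 0.410 to 0.425 in 4OHT clone 8. The 2 replicates of 4OHT clone 8 were close on this ratio although their levels differed 1.88-fold for Col4a1 and 1.82-fold for Lamb1.

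Lamb1 over Lamc1 per length was 1.79 to 2.09 in vehicle clone 8 and 2.39 to 5.17 in the other groups, so Lamb1 RNA was the higher throughout. These are ratios of RNA, and protein was not measured here. Lama5 over Lama1 was 1.82 to 1.97 in 4OHT clone 4, 1.67 to 4.20 in 4OHT clone 8, 2.15 to 4.66 in vehicle clone 4 and 3.85 to 7.11 in vehicle clone 8. RNA of the alpha chain of laminin-511 thus had the higher level in every library. Nid2 over Nid1 was 4.68 to 9.11 in all libraries, with no group apart.

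**Figure D4:**
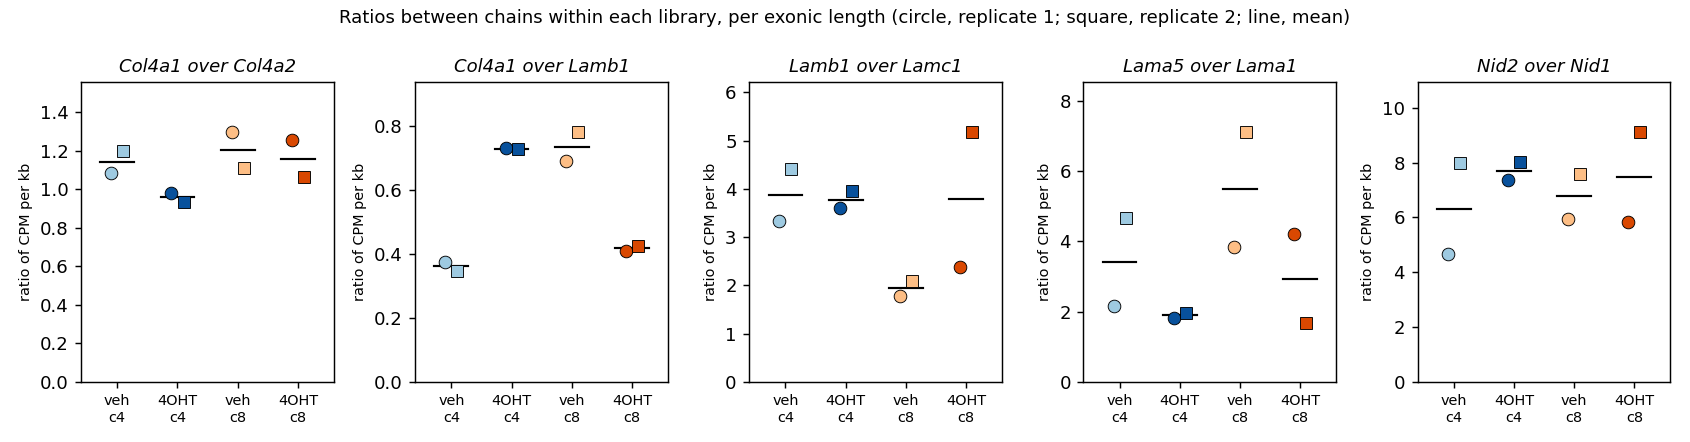
Ratio of CPM per kb of exonic length between pairs of genes within each library (vertical axes, from 0), by group; circles are replicate 1, squares replicate 2 and lines the mean. Col4a1 over Col4a2 stays between 0.934 and 1.30, while Col4a1 over Lamb1 is 0.691 to 0.781 in 4OHT clone 4 and vehicle clone 8 and at most 0.425 in the other groups.

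Genes that work with the scaffold were followed in 4 lists. Of 16 genes for processing and secretion of collagen and laminin, all tested, none was called in clone 4 by edgeR (8 at an unadjusted p under 0.05, 3 called by DESeq2), and 14 had a positive value (median 0.41). In clone 8, 1 was called higher and 1 lower, and for the difference 1 was called lower. Over all genes 8.00% were called higher and 8.60% lower in clone 8, and 1.75% lower for the difference. In clone 4, 1814 of 18321 genes had an unadjusted p under 0.05 and DESeq2 called 2.55%. Serpinh1, the collagen chaperone HSP47, had 185 and 154 CPM in vehicle clone 4, 353 and 477 CPM in 4OHT clone 4, 315 and 251 CPM in vehicle clone 8 and 121 and 236 CPM in 4OHT clone 8. The order of its groups was that of collagen IV, and the difference of its responses was -1.96 ± 0.40 (adjusted p 0.0437).

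Like collagen IV, Serpinh1 kept the call of its difference only without either 4OHT clone 8 library, in 2 of 8 such fits. Ppib, a prolyl isomerase of the collagen-folding machinery, fell in clone 8 by 0.68 on the log2 scale (adjusted p 0.0138), a call lost only without vehicle clone 8 replicate 1 and in the fit of that clone alone. Sec23a, a coat protein of secretory vesicles, rose there by 0.87 (adjusted p 0.0424), a call lost in 6 of 8 fits that left out a library, all but those without vehicle clone 8 replicate 2 or 4OHT clone 8 replicate 1. The fit of clone 8 alone did not call Sec23a either.

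Of 15 receptors and adhesion links, all tested, 5 were called higher and 1 lower in clone 8, 2 higher for the difference and 0 in clone 4 (2 at an unadjusted p under 0.05, 0 by DESeq2). The shares over all genes were 8.00% higher and 8.60% lower in clone 8 and 1.08% higher for the difference. Itga7, the alpha subunit of a laminin-binding integrin, had 8.95 and 12.4 CPM in vehicle clone 8, 65.3 and 44.5 CPM in 4OHT clone 8, 59.7 and 44.3 CPM in vehicle clone 4 and 43.3 and 44.2 CPM in 4OHT clone 4. Vehicle clone 8 was the low group, and the other 6 libraries overlapped.

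Itga7 rose in clone 8 by 2.37 ± 0.25 (log2, adjusted p 0.0070), with a difference from clone 4 of 2.62 ± 0.34 (adjusted p 0.0186). Itgb4, the beta subunit of the hemidesmosomal integrin, rose there by 1.67 ± 0.26 (adjusted p 0.0093), with a difference of 1.95 ± 0.36 (adjusted p 0.0357). The clone 8 calls of both genes were lost only without vehicle clone 8 replicate 1 and in the fit of clone 8 alone. The differences lost their calls in 4 and 5 of 8 fits that left out a library. Itga7 kept its call without vehicle clone 4 replicate 2, vehicle clone 8 replicate 2 or either 4OHT clone 8 library, and Itgb4 without the last 3 of these.

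Itgb1, the beta subunit of most laminin receptors, rose in clone 8 by 0.93 (adjusted p 0.0269), and Dag1, dystroglycan, by 0.77 (adjusted p 0.0397). Their calls were lost in 3 and 6 of 8 such fits: Itgb1 without either vehicle clone 8 library or 4OHT clone 8 replicate 2, and Dag1 in all but those without vehicle clone 8 replicate 2 or 4OHT clone 8 replicate 1. The remaining called genes, named after their values were seen, were Parva, higher by 0.91, and Itga6, which fell by 0.56. Among the fits that left out a library, Parva kept its call only without 4OHT clone 8 replicate 2, and Itga6 only without 4OHT clone 8 replicate 1. Itga6 also lost its call with library totals. The fit of clone 8 alone called none of Itgb1, Dag1, Parva and Itga6. The extraembryonic ectoderm markers given beside the nidogens were low in the same vehicle clone 8 libraries, and their part in the receptor values was not tested.

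Of 25 other basement membrane components 19 could be tested: 3 were called higher and 1 lower in clone 8, 1 in each direction for the difference and 0 in clone 4 (6 at an unadjusted p under 0.05, 2 by DESeq2). Over all genes 8.00% were called higher and 8.60% lower in clone 8, and 1.08% and 1.75% for the difference. Tinagl1, a laminin-binding matrix protein, rose in clone 8 from 43.8 and 52.7 CPM to 120 and 109 CPM, by 1.24 ± 0.15 (log2, adjusted p 0.0070). Fbln1, a fibulin of the basement membrane, fell there from 76.8 and 77.3 CPM to 49.6 and 57.7 CPM, and in clone 4 went from 62.8 and 58.9 CPM to 100 and 107 CPM. Its difference between the clones was -1.29 ± 0.18 (adjusted p 0.0232), in the direction of collagen IV and Sparc, while that of Tinagl1 was 1.07 ± 0.21 (adjusted p 0.0406).

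The call of the difference was lost in 5 of 8 fits without a library for Fbln1 and in 6 of 8 for Tinagl1. It stayed for both without either 4OHT clone 8 library, and for Fbln1 also without vehicle clone 8 replicate 2. The clone 8 call of Tinagl1 was lost only without vehicle clone 8 replicate 1 and in the fit of clone 8 alone. That of Fbln1 (-0.52, adjusted p 0.0271) was kept only without 4OHT clone 8 replicate 2 among such fits, and was lost with library totals and in the fit of clone 8 alone. The laminin chain Lamb2 rose in clone 8 by 0.81 (adjusted p 0.0379), and lost its call without any 1 of the 8 libraries and in the fit of clone 8 alone.

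Of 11 genes for crosslinking and turnover of the matrix, all tested, edgeR called 0 in clone 4, in clone 8 and for the difference. At an unadjusted p under 0.05 there were 3, 2 and 1, against 1814, 6076 and 4165 of 18321 genes. DESeq2 called 0, 1 and 1 of the 11. The medians were -0.17 in clone 4 and -0.06 in clone 8. The median of all genes was -0.0047 in clone 4 and 0.07 in clone 8.

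**Figure D5:**
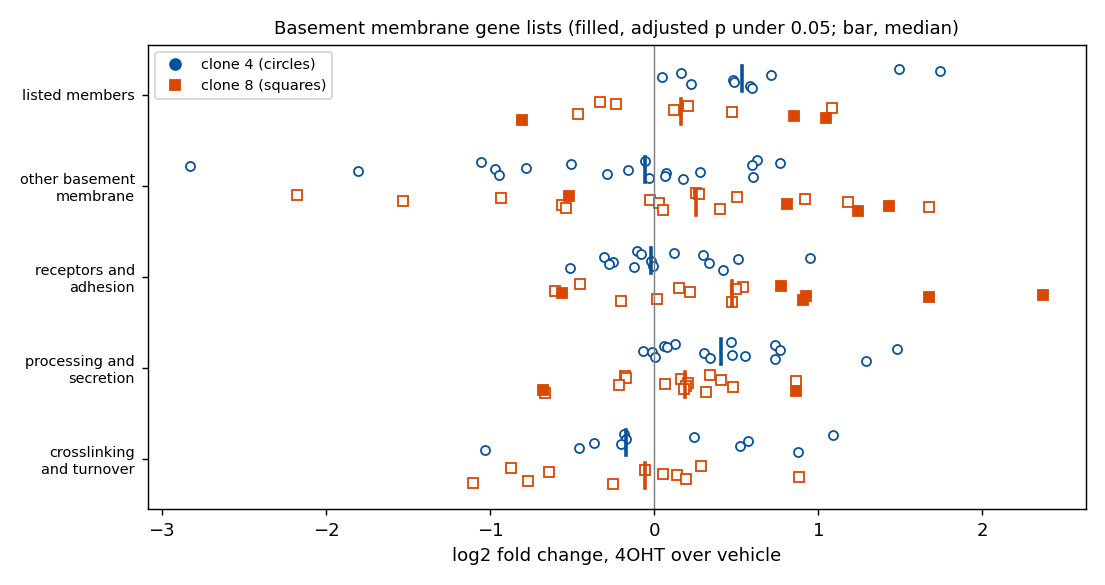
Log2 fold change of 4OHT over vehicle (horizontal axis) for the 10 genes and 4 further lists in clone 4 (circles) and clone 8 (squares); filled symbols passed an adjusted p of 0.05 and upright bars are medians. All 10 genes lie above 0 in clone 4 without a filled symbol, and most filled symbols are receptors and other basement membrane components in clone 8.

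Over the 8 libraries the mean centred log2 CPM of the 10 genes was highest in 4OHT clone 4 (0.40 and 0.44) and in 4OHT clone 8 replicate 2 (0.27). It was -0.28 in 4OHT clone 8 replicate 1 and -0.38 to -0.03 in the vehicle libraries. Among 9150 other genes with a mean above the median log2 CPM of 2.94, the profiles nearest to this mean were those of P2rx4 (root mean square distance 0.0961), Snx7 (0.0971), Xpr1 (0.109), Abhd2 (0.119) and Sfmbt1 (0.128), against a median distance of 0.388. For Lamb1, Col4a1, Col4a2 and Nid2 the replicates of 4OHT clone 8 were farther apart than those of any other group, at 1.82-fold to 2.22-fold. In that group Egr1, an immediate ERK target, was at 74.7 and 379 CPM, and mitochondrial genes held 1.35% and 1.19% of the counts, against 0.205% to 0.619% in the other libraries. Their part in the member values was not tested.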

How the data were processed

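The authors deposited whole-number read counts per Ensembl gene, 1 column a library, unnormalized as the file's values show. The submitters' processing notes name bcl2fastq 2.19.1, STAR 2.5.3a and mm10; the counting program, its annotation and the use of strand are not given in the sources used here, so reads of overlapping or antisense genes may be shared. Symbols, lengths and coordinates came from GENCODE M21 (GRCm38); 233 identifiers had no symbol. The counts were tested with edgeR 4.0.16 in R 4.3.3: filterByExpr over the 4 groups (minimum count 10), TMM scaling, and quasi-likelihood tests adjusted by the Benjamini-Hochberg method over 18321 genes, called at an adjusted p under 0.05. Responses within clones, their difference and the contrasts between clones came from a fit of the 4 groups, and the joint response from an additive fit of clone and treatment. In each fit the groups shared 1 estimate of the spread per gene, because each group has only 2 libraries. An SE is the log2 fold change over the square root of the F statistic. A prior count of 2 entered log2 CPM. The procedure was tested on simulated data. Once scaled to equal totals, replicates differed gene by gene beyond counting error in each group, so no library was counted as a repeat. The chi-square per degree of freedom ran from 21.3 in vehicle clone 4 to 68.1 in 4OHT clone 8.

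All members, the 4 accompanying lists and the marker lists of epiblast, visceral and parietal endoderm, extraembryonic ectoderm, decidua and blood were chosen with earlier results of these data known. All members are named, and from each accompanying list at most 4 called genes with the lowest p, except an item not reported here; Parva and Itga6 are named besides these. The 9 decidual and stromal markers summed to 8.25 to 14.7 CPM and the 8 of endothelium and blood to 8.42 to 41.8 CPM. Results were recomputed with DESeq2 1.42.0, with scaling by RLE or by total counts, unfiltered or with a minimum of 10 counts everywhere, with a replicate block, within 1 clone alone, as the mean of both clones' responses and leaving out each library.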

Additional observations from a re-analysis of the deposited data

Results flagged for a closer look

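Within the 4 libraries of 4OHT, Lamb1 and Nid1 had 1 library far below the other 3, in both cases 4OHT clone 8 replicate 1. There Lamb1 had a log2 CPM of 6.66 and Nid1 of 4.60. This was looked for in 20 sets of 4 libraries. A chance rate of about 1 case in 20 holds for independent sets, each drawn from 1 population. Each set here mixed both clones, and the sets reused the same libraries, so that rate cannot be applied. The responses of Col4a1, Col4a2 and Sparc differed between the clones by the test of the difference itself, at -1.82, -1.97 and -1.40 on the log2 scale (clone 8 minus clone 4).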

How the results depend on the processing

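Of 870 log2 fold changes of the 10 genes under the alternatives, 728 kept both sign and side of the threshold, 62 gained a call, 41 lost one and 39 changed sign. Of the sign changes, 3 came from settings that kept all libraries, all for the difference of Lamb1: 0.093 with library totals, 0.0069 without a filter and 0.0064 with at least 10 counts in every library. Without a filter 5 members were called in clone 4, 5 in clone 8, 4 for the difference and 5 over both clones. Between the clones 7 members were called in vehicle and 3 in 4OHT. Of 30973 genes, 728 were called in clone 4, 4263 in clone 8, 2114 for the difference and 1337 over both clones. Between the clones 2901 genes were called in vehicle and 1414 in 4OHT. With at least 10 counts in every library 2 members were called in clone 4 and 2 between the clones in vehicle. Of 14064 genes, 78 were called in clone 4, 0 over both clones, 1963 between the clones in vehicle and 150 in 4OHT. DESeq2 called 3 members in clone 4, 1 over both clones, 4 between the clones in vehicle and 3 in 4OHT, with 468 genes in clone 4, 1864 for the difference, 1053 over both clones, 3064 in vehicle and 1015 in 4OHT. In fits of 1 clone alone 3 members and 197 genes were called in clone 4, and 0 members and 3 genes in clone 8. The mean of the within-clone responses called 1063 genes, against 1 in the additive fit, and library totals called 19 between the clones in 4OHT, against 37. Library totals moved the median of all genes by 0.12 in clone 8 and 0.11 for the difference; the share of calls that were higher went from 48.2% to 66.2% in clone 8, from 38.2% to 52.1% for the difference and from 29.7% to 57.9% between the clones in 4OHT. The causes were not tested.

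Replicate numbers of different groups did not pair: deviations from group means correlated at -0.030 to 0.095 across genes. With the replicate block 0 genes were called in clone 4 and 18 between the clones in 4OHT. Between the clones in vehicle 2 members and 1581 genes were called, and the difference of Col4a2 was -2.0 without a call. No other call on a member was lost under the block.

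With 1 library left out, 0 to 2 members and 0 to 267 genes were called in clone 4, 0 to 5 and 0 to 3179 in clone 8, 0 to 4 and 0 to 1205 for the difference, 0 and 0 to 1 over both clones, 0 to 5 and 0 to 2518 between the clones in vehicle, and 0 to 5 and 0 to 704 in 4OHT. A group left with 1 library was taken to vary like the others. Log2 values that changed sign then ran, in clone 4, from -0.030 to 0.13 (Lama5), -0.024 to 0.53 (Nid1) and -0.0092 to 0.35 (Hspg2), and in clone 8 from -0.12 to 0.32 (Lama5), -0.029 to 0.84 (Lamb1), -0.86 to 0.054 (Col4a1) and -0.93 to 0.23 (Col4a2). For the difference they ran from -0.33 to 1.15 (Lama1), -0.16 to 0.28 (Lama5), -0.51 to 0.36 (Lamb1), -0.23 to 0.93 (Nid2) and -0.17 to 0.21 (Hspg2). Over both clones they ran from -0.018 to 0.16 (Lama5), -0.20 to 0.20 (Lamc1) and -0.30 to 0.12 (Sparc). Between the clones they ran from -0.20 to 0.24 (Lama5) in vehicle, and in 4OHT from -0.98 to 0.20 (Lama1), -0.79 to 0.076 (Lamb1), -0.48 to 0.031 (Nid1) and -0.88 to 0.27 (Nid2). With 2 libraries a group, and 4OHT libraries deeper than vehicle libraries, depth limited these 10 genes less than the spread between replicates did.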
